A study of Mus musculus with 48 samples.

Results

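Colon was compared with ileum inside the same 5 mice labelled ConvR. The comparison used 10 of the 48 libraries of a study of DNA methylation along the mouse intestine. The members are the ConvR libraries whose section label reads colon or ileum, paired by the number of the mouse, and the regions are the 94535 autosomal ones among the 95882 regions counted. The study sampled 4 sections of the intestine, duodenum, jejunum, ileum and colon, from 5 ConvR mice and from 7 germ-free (GermFree) mice. Each library holds genomic DNA of 1 section of 1 mouse. Fragments sheared to an average of 250 bp were captured by a methyl-CpG-binding domain and sequenced as 100-bp single reads. The groups used are ConvR colon and ConvR ileum (5 libraries each), with GermFree colon and GermFree ileum (7 libraries each) as a second set of mice for the same contrast. ConvR mice carry a gut flora and GermFree mice do not. The sources used here give no strain, age or sex, and do not say when the ConvR mice gained their gut flora. The tissue is labelled only as intestine, so the share of epithelium, immune cells and muscle in a section is not known. In such bulk DNA a change in the share of a cell type and a change of methylation within cells cannot be told apart.

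Methylation of cytosine in CpG pairs is laid down by DNA methyltransferases and is copied at cell division. CpG-rich promoters are usually free of it, while gene bodies, repeats and silenced gene families usually carry it. The ileum takes up bile acids and cobalamin and holds Paneth cells and Peyer's patches, while the colon absorbs water and salt under a thick layer of mucus. A methyl-binding capture returns more reads where more CpG pairs are methylated and where the genome holds more copies of a sequence. Values below are CPM, reads of a region per unit of library size (TMM-scaled counts), so a value compares 1 region between libraries and does not rank regions of unequal length.

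Of the 331 called regions, 28 crossed a promoter window, so the windows do not show the sequence of the called regions as a whole. Some of these windows follow as examples. Each is a RefSeq window of the assembly GRCm38.p6, from 250 bases before to 50 after a gene start, read 5′ to 3′ on the strand of the gene, with each CpG pair in capitals. The first 4 lay under regions higher in colon, that of Olfr175 only in part, and held 0 to 9 CpG pairs. Klra9 encodes a Ly49 receptor of natural killer cells, Gbp2 an interferon-induced GTPase, Olfr175 an olfactory receptor and Zfp984 a zinc finger protein. The Gm46840 window is the only one with over 20 CpG pairs under a called region, and the Gm51470 window lay under a region at Zfp94 that was the only promoter-crossing region lower in colon.
Klra9 (chr6:130193063-130193362, minus strand, 2 CpG): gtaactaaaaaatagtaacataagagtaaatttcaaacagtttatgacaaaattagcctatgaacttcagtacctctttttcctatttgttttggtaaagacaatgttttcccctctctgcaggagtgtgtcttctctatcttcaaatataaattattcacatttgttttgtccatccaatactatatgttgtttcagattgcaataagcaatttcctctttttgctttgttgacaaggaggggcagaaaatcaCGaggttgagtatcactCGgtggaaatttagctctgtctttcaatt
Gbp2 (chr3:142620413-142620712, plus strand, 2 CpG): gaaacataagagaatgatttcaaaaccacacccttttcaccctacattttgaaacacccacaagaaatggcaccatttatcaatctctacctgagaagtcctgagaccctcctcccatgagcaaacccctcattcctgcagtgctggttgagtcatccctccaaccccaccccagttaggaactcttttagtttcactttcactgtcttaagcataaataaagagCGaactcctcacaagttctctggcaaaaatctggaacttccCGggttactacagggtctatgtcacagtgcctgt
Olfr175 (chr16:58826712-58827011, minus strand, 0 CpG): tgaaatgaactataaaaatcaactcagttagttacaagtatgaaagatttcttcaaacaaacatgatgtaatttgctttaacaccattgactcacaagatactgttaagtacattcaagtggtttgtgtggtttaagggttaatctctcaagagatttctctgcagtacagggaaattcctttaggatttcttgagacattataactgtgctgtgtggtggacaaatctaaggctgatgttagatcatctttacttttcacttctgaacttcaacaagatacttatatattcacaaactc
Zfp984 (chr4:147809739-147810038, minus strand, 9 CpG): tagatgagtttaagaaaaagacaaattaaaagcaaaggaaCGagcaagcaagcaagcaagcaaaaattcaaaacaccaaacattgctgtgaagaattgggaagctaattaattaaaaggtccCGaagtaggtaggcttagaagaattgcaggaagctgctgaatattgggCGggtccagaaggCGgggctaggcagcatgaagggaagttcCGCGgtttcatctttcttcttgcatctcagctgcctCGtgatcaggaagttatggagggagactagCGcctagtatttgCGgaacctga
Gm46840 (chr4:3230932-3231231, plus strand, 30 CpG): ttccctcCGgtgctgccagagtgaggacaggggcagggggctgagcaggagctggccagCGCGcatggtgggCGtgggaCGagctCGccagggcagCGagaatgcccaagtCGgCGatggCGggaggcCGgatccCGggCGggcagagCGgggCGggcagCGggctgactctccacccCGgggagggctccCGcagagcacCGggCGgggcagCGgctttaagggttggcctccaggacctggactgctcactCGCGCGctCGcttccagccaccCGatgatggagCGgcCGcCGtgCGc
Gm51470 (chr7:24303600-24303899, plus strand, 4 CpG): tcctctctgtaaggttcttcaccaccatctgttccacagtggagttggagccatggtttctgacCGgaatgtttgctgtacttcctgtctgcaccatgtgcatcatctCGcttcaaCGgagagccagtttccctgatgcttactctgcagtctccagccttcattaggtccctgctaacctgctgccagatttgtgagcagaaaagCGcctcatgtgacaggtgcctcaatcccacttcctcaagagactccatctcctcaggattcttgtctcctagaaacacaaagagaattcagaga

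The libraries were of unequal depth and did not all resemble their section. Totals were 1572791, 2215507, 2295100, 1521377 and 2119662 counts in colon of mice 1 to 5, against 1007560, 2949790, 1557005, 2370216 and 2294426 in ileum. The median autosomal region held 11 to 17 counts in colon and 7 to 22 in ileum. The colon library of mouse 3 stood apart: its log2 CPM correlated with the other colon libraries at a median of 0.808 and with the ileum libraries at 0.853. The other libraries closer to the opposite section were colon of mouse 2 (0.843 with colon, 0.847 with ileum), ileum of mouse 4 (0.855 with colon, 0.836 with ileum) and ileum of mouse 5 (0.847 with colon, 0.834 with ileum). Whether the colon library of mouse 3 was exchanged or mixed with another was not tested, and it is used as labelled. Results that turn on it, or on mice 1 and 3 together, are given with and without them. Mouse number and the code in the library titles coincide in the ConvR mice and cannot be told apart, and the pairing holds both. Each of these 5 codes is also carried by 1 GermFree mouse, and the labels do not say what it marks. The section labels could not be set against expression markers, since the libraries hold DNA.

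Captured DNA was higher in colon than in ileum at 217 autosomal regions and lower at 114, of 74023 tested (0.293% and 0.154%, edgeR with the mouse as a block and Benjamini-Hochberg adjustment at 0.05). Over all autosomal regions tested, the median log2 difference of colon over ileum was -0.01, and 6871 regions had an unadjusted p under 0.05. The differences of the higher regions ran from 0.29 to 1.37 on the log2 scale and those of the lower regions from -0.38 to -1.88. Colon was above ileum in all 5 mice at 182 of the 217 higher regions, a pattern that 4.64% of all tested regions showed. Colon was below ileum in all 5 mice at 60 of the 114 lower regions, against 4.44% of those tested. The levels of the groups did not overlap at 14 higher and 28 lower regions, against 0.411% and 0.589% of all tested regions. At the other calls the levels of the sections overlapped.

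The calls depended on the test used, on the pairing and on few mice. Without the mouse as a block, edgeR called 0 regions (5019 at unadjusted p under 0.05), and DESeq2 with the block also called 0 (947 at unadjusted p under 0.05), whereas limma-voom with the block called 359 higher and 124 lower. Fits without mice 1 to 5 in turn called 185, 63, 203, 88 and 21 regions higher, of which 144, 57, 166, 80 and 20 were among the 217. They called 53, 63, 164, 79 and 41 regions lower, of which 43, 54, 69, 62 and 38 were among the 114. Offsets fitted to abundance gave 80 higher and 98 lower regions, so that fewer were higher than lower, and all 80 were among the 217.

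Regions higher in colon were mostly broad. Their median width was 6775 bp, against 1608 bp over all tested regions, and 64.1% of them measured 5 kb or more, against 6.53%. Of the 4834 tested regions of 5 kb or more, 139 (2.88%) were higher and 10 (0.207%) lower. Of the 21048 regions under 1 kb, 4 (0.019%) were higher and 46 (0.219%) lower. Broad regions also hold more reads, with a median of 64.2 counts per library against 10.5 in regions under 1 kb. The median difference of those width classes was -0.005 and -0.07 on the log2 scale. With more reads a smaller difference can pass the test, in either direction. The part of read depth in these shares was not tested. With offsets fitted to abundance, 80 of the 217 higher regions kept their call. By place, 88 of 13210 tested regions within 1 kb of a gene end were higher (0.666%). In gene bodies 53 of 41433 were higher (0.128%), and outside genes 76 of 19380 (0.392%). The lower regions numbered 20, 64 and 30 in these places, a similar share in each (0.151%, 0.154% and 0.155%).

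**Figure D1:**
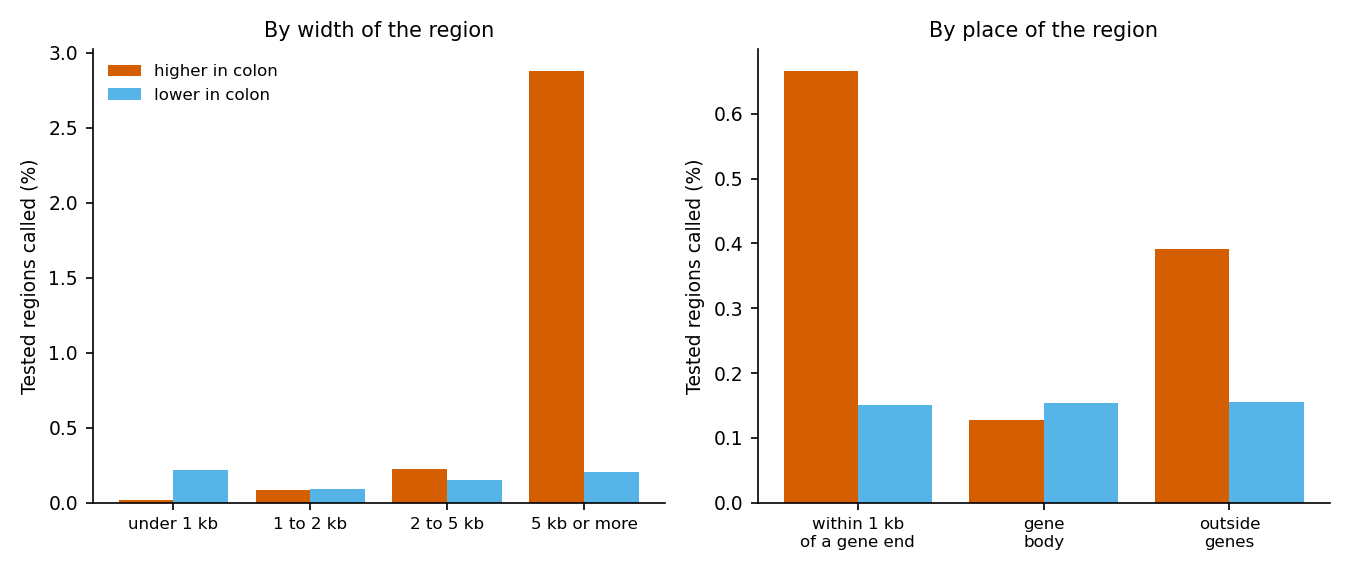
The bars give the percentage of tested autosomal regions that were higher (orange) or lower (blue) in colon than in ileum of ConvR mice, by width and by place of the region. Regions of 5 kb or more were called higher in 2.88% of cases, above every other width class.

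Of the 217 higher regions, 99 lay in 10 stretches of the genome, each with 5 or more higher regions and gaps of at most 500 kb. The stretches were drawn from these calls after the values were seen, so the direction of their sums follows in large part from that choice and is given as a description. Summed over all tested regions inside, colon was above ileum in 5 of 5 mice in each of them. The largest by count was chr4:147090383-147817409, which holds the zinc finger genes Zfp978, Zfp979, Zfp982, Zfp984 and Zfp985, with 17 higher regions of 62 tested. Its summed level was 4808, 4574, 2966, 4974 and 4402 CPM in colon of mice 1 to 5, against 4084, 3776, 2450, 3877 and 3209 CPM in ileum. Colon of mouse 3 was the lowest colon library and lay below 4 of the 5 ileum libraries, so the groups overlapped while every pair went the same way. A second zinc finger stretch on the same chromosome, at chr4:145403275-145689748 with Zfp980 and Zfp990, held 10 higher regions of 27 tested. The clusters are families of near-identical copies, so reads may be placed on the wrong copy and each region counts as uncertain on its own.

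Other stretches held immune gene families and predicted genes. At chr6:130109734-131015142, which holds Klra1, Klra8 and Klra9, 12 of 61 tested regions were higher, and the sum was 2904 ± 604 CPM in colon and 2304 ± 497 CPM in ileum (SD, n = 5 each). At chr1:84974197-85641553, with the chromatin readers Sp110 and Sp140 of nuclear bodies, 9 of 53 were higher, and the sum was 2629 ± 394 CPM in colon and 2187 ± 346 CPM in ileum. The immunoglobulin heavy chain locus at chr12:114518196-115775208 held 5 higher of 33 tested and 884.3, 803.2, 508.6, 924 and 782.6 CPM in colon of mice 1 to 5, against 721.2, 673, 439, 654 and 570 CPM in ileum. Mouse 3 was the lowest in each section there. The stretch at chr5:14880286-15695502, with Speer4cos, of a family named for spermatogenesis, held 14 higher of 40 tested. The stretch at chr17:75556410-75794112 beside Fam98a held 6 higher of 15 tested, and all 15 had a positive difference.

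**Figure D2:**
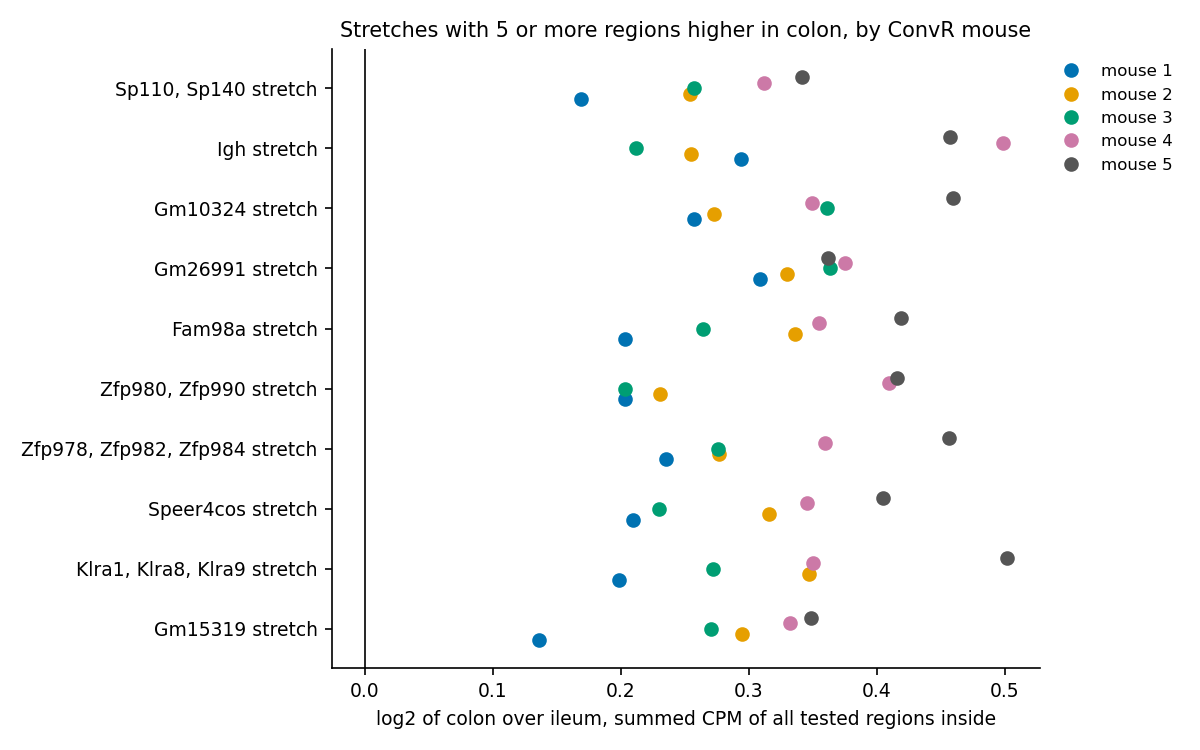
Each row is 1 stretch with 5 or more regions higher in colon, and each point is 1 ConvR mouse. The x axis gives the log2 of colon over ileum for the summed CPM of all tested regions inside, and all points lie right of 0. The stretches were chosen by calls in these same libraries.

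Among single regions of these families, the Klra9 region (chr6:130187367-130211212) had 219, 205, 134, 243 and 193 CPM in colon of mice 1 to 5, against 170, 169, 88.2, 190 and 132 CPM in ileum. It was higher in colon by 0.42 ± 0.08 on the log2 scale (SE, 5 pairs, adjusted p = 0.00139). Mouse 3 was lowest in both sections and mouse 4 highest in both. With offsets fitted to abundance its difference was 0.23 and the call was lost (adjusted p = 0.177). The Klra8 region differed by 0.51 ± 0.10 (adjusted p = 0.000861). Over the family, 3 of 19 tested Klra regions were higher (15.8%) and 0 lower, against 0.293% higher of all tested regions and 2.88% of those of 5 kb or more. Of the 19, 18 had a positive difference, with a median of 0.31. Ly49 receptors read class I molecules on other cells, and their gene copies differ between mouse strains.

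The Sp140 region at chr1:85630244-85641553 had 93.8, 96.1, 57.1, 96.8 and 81.3 CPM in colon, against 77.2, 63, 34.6, 71.1 and 67.9 CPM in ileum of mice 1 to 5. The difference was 0.45 ± 0.09 (adjusted p = 0.00411), and colon of mouse 3 again lay within the ileum range. The call was lost without mouse 2 (adjusted p = 0.096). All 12 tested regions of the Sp100 and Sp140 genes had a positive difference. Of them 3 were called (25%, against 0.293% of all and 2.88% of those of 5 kb or more). The Igh region at chr12:114518196-114524317 had 53.3, 49.4, 32.6, 43 and 45.6 CPM in colon and 35.6, 30.8, 13.9, 34.3 and 31.8 CPM in ileum of mice 1 to 5. It differed by 0.61 ± 0.12 (adjusted p = 0.00117) and stayed under 0.05 whichever mouse was left out. Colon of mouse 3 lay within the ileum range, and the other colon libraries lay above it. Over 6 immunoglobulin and T cell receptor loci, where lymphocytes cut and join gene segments, 10 of 138 tested regions were higher and 0 lower. That was 7.25% higher, against 0.293% of all and 2.88% of those of 5 kb or more, and the median difference was 0.23. The 10 lay at Igh, Igk and Tcra.

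Zinc finger genes named Zfp had 23 higher and 4 lower of 767 tested regions, and their median difference was 0.03. The shares were 3% and 0.522%, against 0.293% and 0.154% of all. Of all tested regions of 5 kb or more, 2.88% were higher and 0.207% lower. The Zfp978 region at chr4:147332364-147345529 had 242, 232, 126, 245 and 195 CPM in colon, against 176, 153, 115, 181 and 137 CPM in ileum of mice 1 to 5. It was higher by 0.44 ± 0.08 (adjusted p = 0.000615) and passed whichever mouse was left out, but with offsets fitted to abundance it was 0.25 (adjusted p = 0.118). The Zfp982 region at chr4:147515958-147529908 had 386 ± 60.3 CPM in colon and 306 ± 60.3 CPM in ileum (SD, n = 5 each), a difference of 0.34 ± 0.08 (SE, adjusted p = 0.00937). That call was lost without mouse 2 (adjusted p = 0.0659) and without mouse 5 (0.132), and in fits on 20 ConvR libraries (0.0929) or all 48 (0.144). With offsets fitted to abundance its difference was 0.09 (adjusted p = 0.723). A Zfp984 region had 73.4 ± 13.4 CPM in colon and 54 ± 14.3 CPM in ileum (SD, n = 5 each, adjusted p = 0.00633), a call lost without mouse 5 alone (adjusted p = 0.171).

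Genes of the Pramel and Obox families, which act in germ cells and early embryos, had 7 higher and 0 lower of 34 tested regions (20.6% higher, against 0.293% of all), with a median difference of 0.31. The Pramel51 region (chr12:88182399-88186421) had 42.4, 34.5, 24.5, 38.3 and 39 CPM in colon, against 19.3, 29.5, 11.3, 20.1 and 21.1 CPM in ileum of mice 1 to 5 (0.75 ± 0.13, adjusted p = 0.000307). Colon of mouse 3 lay between the ileum values and the other colon libraries lay above all of them. Of 15 regions at class I histocompatibility genes, 1 was higher (6.67%, against 0.293% of all), at H2-T3, a non-classical class I gene active in mouse intestinal epithelium. It had 58.5, 61.2, 33.5, 59.2 and 48.4 CPM in colon, against 36.6, 42, 20.2, 46.4 and 40.4 CPM in ileum (0.47 ± 0.11, adjusted p = 0.0132), and the call was lost without mouse 1 or 2. Of 8 regions at Gbp genes, 1 was higher (12.5%, against 0.293% of all), at Gbp2b, by 0.62 ± 0.14 (adjusted p = 0.0112). The Gbp2 promoter window printed above lies under this same region, and its call was lost without mouse 2 or 5. Olfactory and vomeronasal receptor genes had 1 higher and 1 lower of 178 tested regions (0.562% each, against 0.293% and 0.154% of all), and a median difference of 0.03. All these families were picked after their values were seen, so their counts are descriptions. They were not matched to all tested regions by width, and 2.88% of those of 5 kb or more were higher.

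The largest difference among the higher regions was outside these families, in the body of Slc6a17 (chr3:107494954-107496416), which encodes a vesicular amino acid transporter of neurons. It had 12.9, 14.5, 9.02, 10.8 and 8.93 CPM in colon, against 4.06, 4.74, 2.52, 5.44 and 4.30 CPM in ileum of mice 1 to 5. The lowest colon library lay above the highest ileum library. The difference was 1.37 ± 0.25 (adjusted p = 0.000697), and it passed whichever mouse was left out. The Fam78b region (chr1:167051717-167052351) had 8.35, 5.44, 6.44, 9.41 and 11.7 CPM in colon and 4.06, 3.05, 4.41, 4.6 and 2.58 CPM in ileum (1.16 ± 0.29, adjusted p = 0.0327), again with no overlap. Its call was lost without mouse 1, 2, 4 or 5, with adjusted p of up to 0.449.

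The same rule named further gene-body regions. Cacna1c, the pore of the L-type calcium channel of muscle and neurons, had 12.1 ± 3.96 CPM in colon and 6.89 ± 2.64 CPM in ileum at chr6:118651040-118652841 (SD, n = 5 each), and its call was lost without mouse 2 (adjusted p = 0.611), 3 or 4. Rsu1, an adaptor of cell adhesion, had 13.3 ± 3.93 CPM in colon and 7.05 ± 2.19 CPM in ileum, with no overlap. Its call was lost without mouse 1, 4 or 5 (adjusted p up to 0.291). Proser2 had 15.1 ± 1.29 CPM in colon and 9.18 ± 1.92 CPM in ileum, also with no overlap, and its call was lost without mouse 2, 3, 4 or 5 (adjusted p up to 0.273). With offsets fitted to abundance the adjusted p was 0.0525 for Rsu1 and 0.0541 for Proser2. Serpinb9e, one of a cluster of near-copies of a granzyme inhibitor, had 12.2 ± 3.84 CPM in colon and 6.21 ± 2.38 CPM in ileum, and its call was lost whichever mouse was left out. Ccdc192, a coiled-coil gene with 3 called regions, had 39.6 ± 9.27 CPM in colon and 26.8 ± 7.15 CPM in ileum at the one of smallest p (adjusted p = 0.00349, and 0.131 without mouse 5). The differences of the first 4 genes here ran from 0.77 to 0.93 on the log2 scale with adjusted p between 0.0271 and 0.0373.

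**Figure D3:**
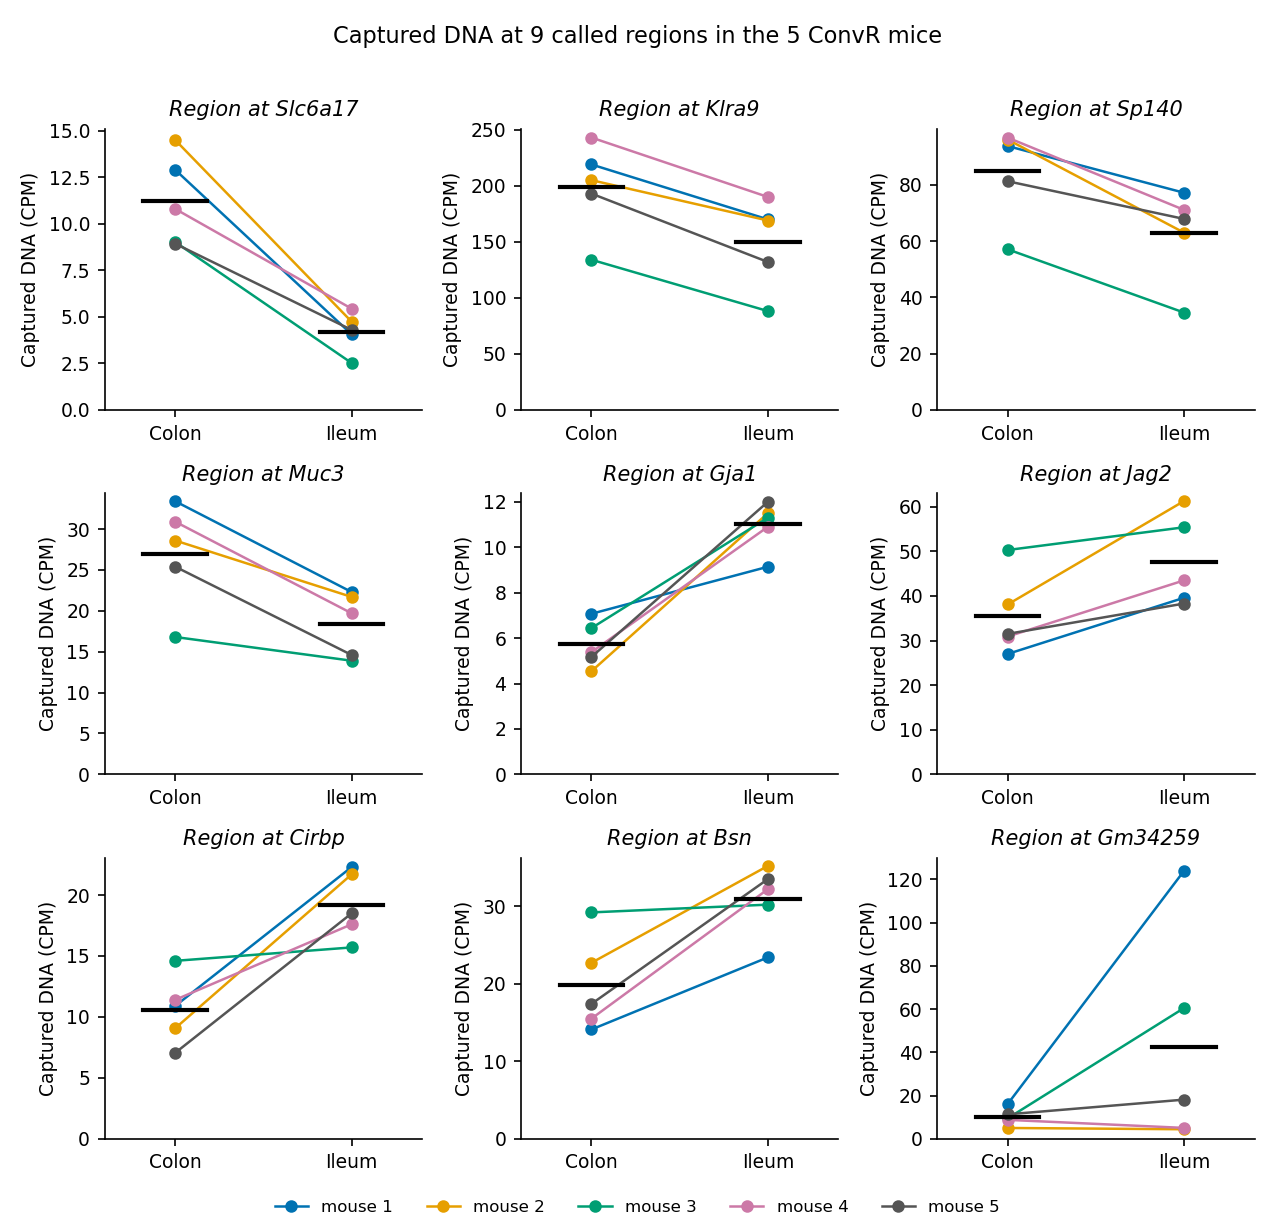
Captured DNA in CPM at 9 called regions, with colon left of ileum, 1 line per ConvR mouse and a black bar at the mean of each section. The Slc6a17 and Gja1 regions show no overlap of the sections. At the Klra9 and Sp140 regions every line falls from colon to ileum by unequal amounts, with mouse 3 lowest in both sections. At Gm34259 mice 1 and 3 stand far above the others in ileum.

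The regions lower in colon were narrower and fell into a pair of sets. At 52 of the 114, ileum of mice 1 and 3 held the highest levels of the 5 ileum libraries, a pattern shown by 11.24% of all tested regions. At the other 62 it did not. This split was made after the values were seen. The 62 regions had a median width of 2362 bp and a median difference of -0.75. The 52 had a median width of 794 bp and a median difference of -1.13.

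Summed over the 62 regions, colon had 924.1, 963.3, 1220, 852 and 817.4 CPM in mice 1 to 5, against 1453, 1626, 1535, 1309 and 1389 CPM in ileum. The regions were chosen by calls in these same libraries, so the order of the sums restates that choice, and mouse 3 had the highest colon sum. Among them, Gja1, which encodes the gap junction protein connexin 43 found in fibroblasts, muscle and interstitial cells, had 7.07, 4.54, 6.44, 5.38 and 5.17 CPM in colon, against 9.14, 11.5, 11.3, 10.9 and 12 CPM in ileum (chr10:56387587-56388990). The groups did not overlap, and the log2 difference was -1.0 ± 0.24 (SE, adjusted p = 0.0183). The call was lost without mouse 2, 4 or 5, with adjusted p of up to 0.174.

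A region in Jag2, a ligand of Notch receptors, was lower in colon (chr12:112906277-112914014). It had 27, 38.1, 50.3, 30.9 and 31.5 CPM in colon of mice 1 to 5, against 39.6, 61.3, 55.4, 43.5 and 38.3 CPM in ileum. Colon of mouse 3 was the highest colon library and overlapped the ileum range, while every pair went the same way. The log2 difference was -0.43 ± 0.11 (SE, adjusted p = 0.0391), and among the fits that left out a mouse, the one without mouse 3 kept it under 0.05 (adjusted p = 0.0221).

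Subunits of BAF complexes, which move nucleosomes with the energy of ATP, had 0 higher and 4 lower of 143 tested regions (2.8% lower, against 0.154% of all), and the median over them was -0.04. The Smarca4 region, at the ATPase gene (chr9:21677215-21678769), had 3.21, 8.16, 12.9, 6.72 and 5.64 CPM in colon, against 11.2, 21.3, 18.3, 10.5 and 12.5 CPM in ileum of mice 1 to 5 (-1.01 ± 0.21, adjusted p = 0.00339). Colon of mouse 3 overlapped the ileum values, and the call was lost without mouse 2 (adjusted p = 0.137) or mouse 5. Smarcc2, a core subunit, had 3.10 ± 1.48 CPM in colon and 7.19 ± 3.48 CPM in ileum (-1.26 ± 0.31, adjusted p = 0.0279), and with few reads it could be tested in only 2 of the 5 fits without a mouse. Bicra and Bicral, related subunits of a smaller BAF form, differed by -0.79 ± 0.19 and -0.77 ± 0.19. They passed in 3 and 1 of the 5 fits without a mouse. The family was chosen after its values were seen.

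Broader lower regions held more reads. Cirbp, a cold-inducible RNA-binding protein, had 10.9, 9.07, 14.6, 11.4 and 7.05 CPM in colon, against 22.3, 21.7, 15.7, 17.6 and 18.5 CPM in ileum of mice 1 to 5 (chr10:80169755-80172165, -0.87 ± 0.18, adjusted p = 0.00422). The groups did not overlap, although mouse 3 differed little. Bsn, a scaffold of presynaptic endings, had 14.1, 22.7, 29.2, 15.5 and 17.4 CPM in colon, against 23.4, 35.2, 30.2, 32.2 and 33.5 CPM in ileum (-0.64 ± 0.14, adjusted p = 0.00587). Ifngr2, a chain of the interferon gamma receptor, had 16.6 ± 3.84 CPM in colon and 25.8 ± 3.43 CPM in ileum (SD, n = 5 each), with no overlap (-0.66 ± 0.15, adjusted p = 0.0113). Eppk1, a cytoskeletal linker of epithelium, had 37.9 ± 8.54 CPM in colon and 56.2 ± 12.9 CPM in ileum (-0.56 ± 0.11, adjusted p = 0.00113). Trim28, the corepressor that zinc finger proteins recruit, and Cxxc1, which binds unmethylated CpG pairs, had log2 differences of -0.97 and -0.52. These were picked from the called regions after their values were seen. Eppk1 passed whichever mouse was left out, Cirbp and Bsn in 3 of those 5 fits, Ifngr2 in 2, Cxxc1 in 1 and Trim28 in 0.

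Of the remaining regions that the rule named, Bambi, a decoy receptor for TGF-beta signals, had 3.43 ± 0.924 CPM in colon and 7.56 ± 1.82 CPM in ileum (SD, n = 5 each). Fto, an RNA demethylase, had 4.43 ± 2.06 CPM in colon and 9.14 ± 1.25 CPM in ileum, and Col6a6, a collagen VI chain, had 3.09 ± 1.28 CPM in colon and 7.03 ± 2.13 CPM in ileum. Tbc1d2b had 3.38 ± 1.45 CPM in colon and 8.01 ± 2.44 CPM in ileum. None of these groups overlapped, with adjusted p between 0.0289 and 0.0447. Fto lost its call whichever mouse was left out (adjusted p of 0.0581 to 0.335), and with autosomes only (0.0506) or no count filter (0.0593). Bambi passed in 2 of 5 such fits, Tbc1d2b in 1 of 4 and Col6a6 in 1 of 3, and all 4 lost their call with offsets fitted to abundance (0.0559 to 0.0739). Atxn1 overlapped, with 5.05 ± 1.81 CPM in colon and 10 ± 3.18 CPM in ileum, and passed in 1 of 5.

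The other 52 lower regions, chosen for that pattern, turned on ileum of mice 1 and 3. Their sums were 736.5, 348.3, 520.2, 404.8 and 497 CPM in colon of mice 1 to 5, against 2859, 392.7, 1479, 371.6 and 745.4 CPM in ileum. Mouse 4 went the other way in the sum and mouse 2 differed little. The region with the smallest p of all, at the predicted gene Gm34259 (chr17:4625871-4626954), had 16.1, 4.99, 9.45, 8.74 and 11.3 CPM in colon, against 124, 4.40, 60.5, 5.02 and 18.1 CPM in ileum. Its log2 difference was -1.88 ± 0.20 (adjusted p = 2.62e-12), and without mice 1 and 3 it was -0.17 (adjusted p = 0.89). Colon was above ileum in mice 2 and 4.

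Il5, the growth factor of eosinophils, and Notch2, a Notch receptor, belong to this set. The Il5 region (chr11:53721594-53722378) had 9, 3.17, 6.01, 6.72 and 4.70 CPM in colon, against 43.7, 4.06, 24.6, 4.18 and 9.46 CPM in ileum (-1.42 ± 0.24, adjusted p = 0.000129). Without mouse 1 its adjusted p was 0.0833 and without mice 1 and 3 it was 0.811. The Notch2 region had 12.6 ± 3.86 CPM in colon and 24.3 ± 17.2 CPM in ileum (-0.88 ± 0.18, adjusted p = 0.00251), and without mice 1 and 3 the adjusted p was 0.419. Regions at Acacb, an acetyl-CoA carboxylase, and at the 7S RNA gene Rn7s2 had 74.2 and 138 CPM in ileum of mouse 1, and without mice 1 and 3 their adjusted p was 0.777 and 0.957. The region at Atad3a, a mitochondrial membrane ATPase, had 55.9 CPM in ileum of mouse 1 and held too few reads to be tested without those mice.  Over all calls, 157 of the 217 higher and 41 of the 114 lower regions still passed without mice 1 and 3.

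The same contrast in 7 GermFree mice, which share no library with the ConvR mice but carry the same title codes in 5 of the 7, gave 922 higher and 484 lower regions of 68863 tested (1.34% and 0.703%). All 217 higher ConvR regions were tested there, 212 had the same direction and 126 (58.1%) were called higher. Of the 114 lower regions 95 were tested, 61 had the same direction and 14 (14.7%) were called lower. No region was called in opposite directions. The median difference of the higher regions was 0.45 in ConvR and 0.36 in GermFree mice, and that of the lower regions was -0.93 in ConvR and -0.14 in GermFree mice.

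The lower regions were also counted by set. Of the 62, 55 were tested in GermFree mice, 49 were negative and 14 were called, among them Bsn (-0.70 ± 0.12 in GermFree mice, adjusted p = 0.000143), Cirbp, Eppk1, Ifngr2, Ank3 and Jag2. Of the 52, 40 were tested, 12 were negative and 0 were called, with a median of 0.17. Read the other way, 866 of 912 GermFree higher regions tested in ConvR mice were positive there, and 424 of 473 GermFree lower regions were negative.

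**Figure D4:**
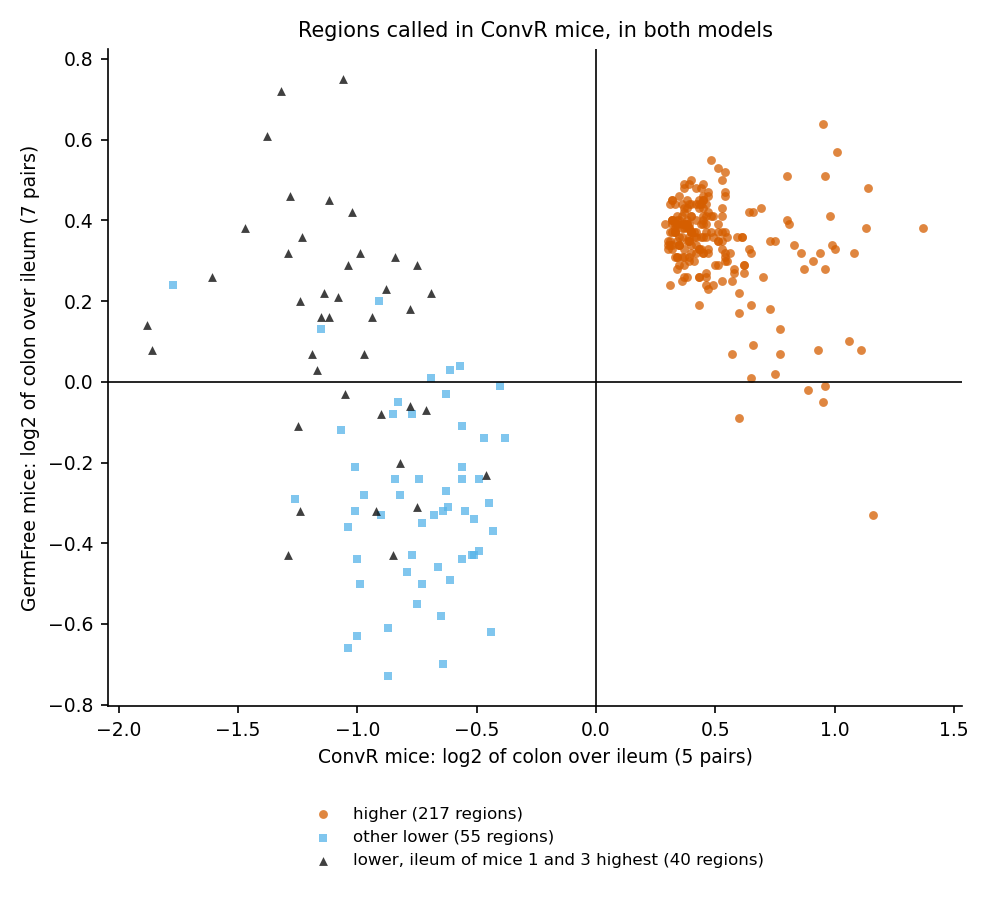
Each point is a region called in ConvR mice and tested in both models, with its log2 difference of colon over ileum in ConvR mice on the x axis and in GermFree mice on the y axis. Regions higher in colon lie above 0 in GermFree mice with 5 exceptions, while the 40 regions highest in ileum of mice 1 and 3 scatter around and above 0.

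A test of the difference of the contrast between ConvR and GermFree mice, fitted on the 24 colon and ileum libraries of all 12 mice, called 0 regions more positive in ConvR mice and 24 more negative, of 91239 tested (0.0263%; 4035 at unadjusted p under 0.05). At all 24, mice 1 and 3 had the highest ileum levels among the ConvR mice, and 21 of the 24 were among the lower calls. This test holds each mouse as a block and has no term for a title code within a section. Fits without mouse 1 gave 0 more negative regions and without mouse 3 1, against 40 and 39 without mouse 2 or 4, and 3 were more positive without mouse 2. Without both mice 1 and 3 no region passed, nor without the mouse as a block or in DESeq2. None of the 217 higher regions passed this test, which does not show that they are equal in both models.

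Regions chosen in GermFree mice were then read in each ConvR library, since they did not use those libraries. The log2 of the summed CPM of the 922 GermFree higher regions over that of the 484 lower ones was 2.77, 2.63, 1.59, 2.88 and 2.64 in colon of mice 1 to 5, against 2.39, 1.87, 1.38, 2.19 and 1.92 in ileum. Colon was above ileum in 5 of 5 mice, by 0.55 ± 0.24 (SD, n = 5 pairs; exact sign-change permutation test, two-sided p = 0.0625, the smallest that 5 pairs allow). Colon of mouse 3, at 1.59, lay below 4 of the 5 ileum libraries. In mouse 3 the sum of the lower regions went the other way, with 9114 CPM in colon and 8921 CPM in ileum, while that of the higher regions was 27510 CPM in colon and 23150 CPM in ileum. In the other 4 mice the lower regions had 6372 to 6900 CPM in colon and 7514 to 9394 CPM in ileum.

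Along the intestine of the ConvR mice, the 217 higher regions were not graded from end to end. Their summed level was 18380 ± 3570 CPM in colon, 13930 ± 2740 in ileum, 17140 ± 1370 in jejunum and 13940 ± 2500 in duodenum (SD, n = 5 each). Colon was above jejunum in mice 1, 2, 4 and 5, while mouse 3 had 12280 CPM in colon and 17120 CPM in jejunum. Without mouse 3 the sums were 19900 ± 1230 CPM in colon, 15010 ± 1500 in ileum, 17140 ± 1580 in jejunum and 14900 ± 1470 in duodenum (SD, n = 4 each). Colon was the highest section at 207 of the 217 and jejunum at 10, while ileum was the lowest at 122 and duodenum at 95. The choice of the regions by colon and ileum fixes that order in part, so it is given as a description.

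The 62 lower regions held 958.1 ± 157 CPM in colon, 1460 ± 124 in ileum, 1118 ± 47.3 in jejunum and 1287 ± 123 in duodenum, and ileum was the highest section at 60 of them. At the 52 regions, mice 1 and 3 were also high in the duodenum, with 2576 and 2117 CPM there, against 345.4 to 610.9 CPM in mice 2, 4 and 5. In the jejunum they had 967.2 and 1202 CPM, against 382.6 to 422.7 CPM. In colon their sums were also the highest, at 740.1 and 519.4 CPM in that fit, against 349.3 to 499.7 CPM in mice 2, 4 and 5.

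**Figure D5:**
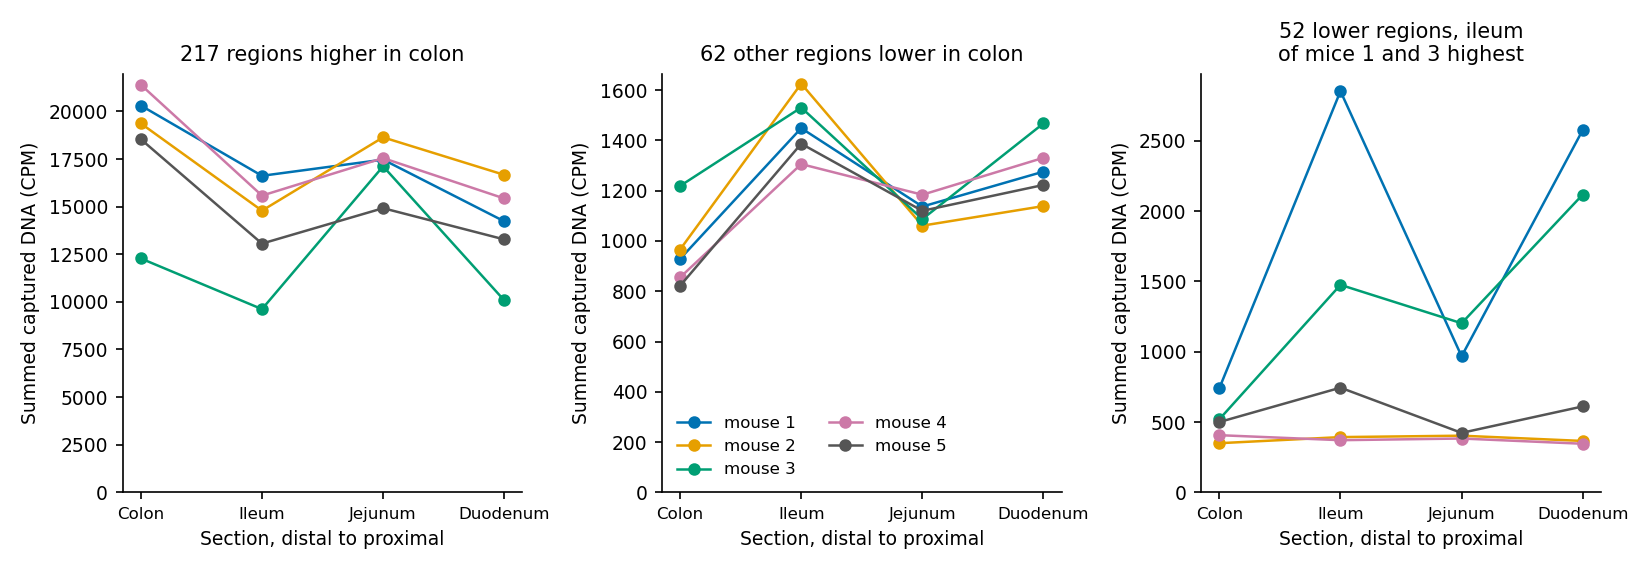
Summed CPM in each ConvR mouse over the 217 higher regions, the 62 other lower regions and the 52 lower regions highest in ileum of mice 1 and 3, by section from colon to duodenum. In the last panel mice 1 and 3 lie above the others in ileum, jejunum and duodenum.

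Genes that mark cell types and gut segments were mostly without a call. Over 28 lists with 680 genes, 482 genes had a tested region, and of 1759 regions 1 was higher and 5 lower (0.341%, against 0.447% of all tested regions). Their median difference was -0.04, against -0.01 over all regions. The one higher was at Muc3, a membrane mucin of enterocytes and goblet cells (chr5:137151901-137153132), with 33.4, 28.6, 16.8, 30.9 and 25.4 CPM in colon and 22.3, 21.7, 13.9, 19.7 and 14.6 CPM in ileum of mice 1 to 5. It differed by 0.54 ± 0.14 (adjusted p = 0.0481) and lost its call without mouse 1, 2, 4 or 5, as well as with library totals or fitted offsets. Of the lower ones, those at Jag2, Notch2, Gja1 and Il5 are described above.

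Lists for the work of each section are too small for a count of calls to be read against the 0.447% of all regions. Colonocyte genes had 0 of 69 regions called (median -0.05, 8 regions at unadjusted p under 0.05, which 9.28% of all regions reached), ileal bile acid and cobalamin genes 0 of 41 (median -0.06, 3 regions), and small intestinal enterocyte genes 0 of 78 (median 0.02, 5 regions). Regions at single marker genes without a call follow as examples, outside the rule that named the regions above. Fabp6, the ileal bile acid binding protein, had 13.1 CPM in colon and 13.1 CPM in ileum (0.01 ± 0.19, adjusted p = 0.996). Slc10a2, the ileal bile acid transporter, had 8.77 CPM in colon and 10.8 CPM in ileum (-0.30 ± 0.22, adjusted p = 0.693), and Car1, a carbonic anhydrase of colonocytes, 6.44 CPM in colon and 8.93 CPM in ileum (-0.49 ± 0.24, adjusted p = 0.501). Gata4, a transcription factor of proximal small intestine, had 3.24 CPM in colon and 5.07 CPM in ileum at its region of smallest p (-0.51 ± 0.35, adjusted p = 0.679). With standard errors of this size at 3.24 to 13.1 CPM, changes as small as the 0.29 to 0.5 seen at broad regions were not detectable. Of 39 Hox genes, which order the gut from front to back, 2 had a tested region.

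Of 2203 tested regions that cross a promoter window, 27 were higher and 1 lower in colon (1.23% and 0.0454%). Of all tested regions 0.293% were higher and 0.154% lower, and of those of 5 kb or more 2.88% were higher. By the most CpG pairs in a window, 19 of 488 regions with 0 to 3 pairs were higher and 0 lower, as were 6 and 1 of 1254 with 4 to 9, 1 and 0 of 412 with 10 to 19, and 1 and 0 of 49 with 20 or more. Their median differences were 0.05, -0.03, -0.07 and 0.04. Most of these higher regions thus crossed only windows with few CpG pairs, as those of Gbp2 and Olfr175 printed above, and 1 crossed that of Gm46840. The Klra9 region also crosses a window of Gm52487 with 4 pairs. Over the 31396 autosomal windows in the table the median was 7 CpG pairs, and 94.75% held at least 1.

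Reads outside the autosomes took a larger share in colon in every mouse. The Y chromosome took 1.95%, 1.85%, 1.25%, 2.0% and 1.80% of counts in colon of mice 1 to 5, against 1.63%, 1.53%, 1.06%, 1.59% and 1.34% in ileum. Mitochondrial DNA took 0.676% ± 0.148 in colon and 0.483% ± 0.0421 in ileum (SD, n = 5 each). In the edgeR fit the mitochondrial regions differed by 0.45 ± 0.08 (adjusted p = 0.0002) and 0.49 ± 0.08 (adjusted p = 2e-05), and in GermFree mice by 0.27 and 0.28 (adjusted p = 0.487 and 0.443). The X chromosome took 0.537% ± 0.0757 in colon and 0.469% ± 0.0712 in ileum. Each share was higher in colon in 5 of 5 mice (exact sign-change permutation test, two-sided p = 0.0625, the smallest that 5 pairs allow, and 0.1 after adjustment over 8 shares). Regions under 1 kb took 20.1% ± 0.736 in colon and 20.8% ± 0.754 in ileum, and gene bodies 53.9% ± 0.385 in colon and 54.3% ± 0.434 in ileum, each lower in colon in 5 of 5 mice with the same p. The autosomal pseudogene Gm10222 (chr1:24611706-24613561), a nuclear copy of mitochondrial DNA, was among the higher calls, with 148 ± 40.2 CPM in colon and 101 ± 14.2 CPM in ileum. The part of these shares in the calls was not tested.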

How the data were processed

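Methylated DNA was captured with MethylMiner and sequenced from 48 libraries, per the labels' protocols. Per the submitters' processing notes, reads were handled with Trim Galore 0.3.7, cutadapt 1.4.2, MACS2 and featureCounts on mm10. The sources used here do not name the aligner or say how duplicate and multi-mapping reads were treated. The counts deposited by the authors are whole numbers of reads per region, and the deposited peak list has 1 score per region, used only as a filter in an alternative. All region names carry the GermFree label.

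Counts were fitted with edgeR 4.0.16 in R 4.3.3 (TMM, filterByExpr, quasi-likelihood F-test with trended dispersion, mouse as a block, Benjamini-Hochberg over the 75141 regions tested, sex chromosomes included). The SE given with an edgeR difference is its absolute value over the square root of the F statistic, so it restates the test. Same-mouse libraries come from 1 animal by their labels. Their deviations from the section means correlated at 0.05, 0.03, 0.22, 0.04 and 0.06 in mice 1 to 5. Alternatives were DESeq2 1.42.0, limma-voom 3.58.1, other scalings, filters and libraries, and leaving out mice. limma-voom, and the test between models without mice 1 and 3, were chosen after seeing the data. The count steps were tested on simulated data. Annotation and figures used Python 3.11.15 with pandas 2.3.3, NumPy 2.4.6, SciPy 1.17.1 and Matplotlib 3.10.9, and data.table, version 1.17.8.

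Regions were assigned to a RefSeq gene of GRCm38.p6 (the coordinates of mm10) that they overlap or lie within 5 kb of. The libraries, lists and tests were chosen with earlier results of these data known. Named regions passed 0.05 with a mean of at least 5 CPM and 1 direction in all 5 mice, the 12 largest per direction and 1 per gene, with the 6 genes holding most called regions per direction, which need not have 1 direction, and up to 3 per list. Most text outside this rule says that it was picked after values were seen, families and stretches included. The regions at Fabp6, Slc10a2, Car1, Gata4 and Gm10222 also lie outside it and are single examples. A few genes named by this rule are not reported here.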

Additional observations from a re-analysis of the deposited data

Results flagged for a closer look

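In 4 of 96 groups of 5 libraries, 1 library lay far from the rest, with a gap to its neighbour that took over 0.71 of the range of the group. Chance gives about 5% such groups. At the Igh region on chr12:114518196-114524317 ileum of mouse 3 was low, at 13.9 CPM, with a gap of 0.781 of the range. At the Zfp982 region colon of mouse 3 was low, at 280 CPM (0.749). For the share of counts on the Y chromosome colon of mouse 3 was low, at 1.25% (0.735). At the Gm24105 region ileum of mouse 1 was high, at 80.3 CPM (0.715). Mouse 3 thus gave 3 of the 4.

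The contrast of colon over ileum was more negative in ConvR than in GermFree mice at 8 named regions by the edgeR test of that difference. The log2 difference between the models was -2 at Gm34259 (adjusted p = 0.00047), -1.93 at Gm24105 (0.000798), -1.87 at Atad3a (0.014) and -1.81 at Lrrc69 (0.00856). It was -1.74 at Il5 (0.0166), -1.34 at Acacb (0.00752), -1.19 at Rn7s2 (0.014) and -1.11 at Notch2 (0.0225). All 8 had their highest ConvR ileum levels in mice 1 and 3, and without those mice no region passed this test.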

How the results depend on the processing

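The calls depended both on the mouse as a block and on the test used. With no replicate block edgeR called 0 higher and 0 lower regions in ConvR mice, and 0 that differed between models. DESeq2 with the mouse as a block gave 0 of each, and 0 at the gene lists in either direction. Higher regions numbered 80 with offsets fitted to abundance, 353 with scores at or above the median, 100 with all 20 ConvR libraries, 61 with all 48 and 359 with limma-voom. Lower regions numbered 72 with all 48 libraries and 191 with ConvR mice 2, 4 and 5 only. Leaving out 1 mouse gave 21 to 203 higher and 41 to 164 lower regions. For the difference between models it gave 0 to 3 regions more positive and 0 (without mouse 1) to 40 more negative in ConvR mice, and without mice 1 and 3 there were 0 more negative. Fitted offsets left 0 higher regions at the gene lists. The share of counts within 1 kb of a gene end, 0.031 percentage points higher in colon, was -0.0765 with a window of 2 kb, and -0.0898 to 0.101 without 1 mouse. The LOC115487541 region changed sign without mice 1 and 3, to 0.03. The cause of these changes was not tested.

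Of the 40 named regions, 6 passed in all 5 fits that left out a mouse. They lay at Slc6a17, Igh (chr12:114518196-114524317), Zfp978 (chr4:147332364-147345529), Gm24105, Gm34259 and Atad3a. Another named region of Igh and another of Zfp978 each passed in 2 of 5, with adjusted p of up to 0.253 and 0.489. With no replicate block 0 of the 40 kept their call and with DESeq2 0. The count was 40 with DESeq2 size factors, 39 with library totals, 34 with limma-voom, 32 on 20 libraries, 27 with fitted offsets, 26 on 48 libraries and 12 (without mouse 5) to 28 without 1 mouse. Regions of few reads limit the rest: the median region held 7 to 22 counts, and counts of reads without molecular identifiers are not independent molecules. Regions absent from the deposited peak list were not analysed here.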

Other observations

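Calls were unevenly spread over chromosomes. Chromosome 4 held 40 of the 217 higher regions (0.833% of its 4801 tested regions) and chromosome 13 held 28 (0.765% of 3659), while chromosome 19 held 1 of 2338 and chromosome 11 held 4 of 4453. The zinc finger stretches on chromosome 4 held 17 and 10 of its higher regions, and a stretch on chromosome 13 held 10 of those there. The lower regions numbered 2 to 12 on each of the 19 autosomes.

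Among higher regions not yet described, picked after their values were seen, 3 lay at Snhg14, the long host transcript of the imprinted small nucleolar RNA cluster on chromosome 7, with log2 differences of 0.38 to 0.65 and adjusted p of 0.0381 to 0.0494. The gene of the neuropeptide S receptor, Npsr1, held 2. The first of them had 63.7 ± 13.6 CPM in colon and 45.5 ± 9.11 CPM in ileum (SD, n = 5 each, adjusted p = 0.00827), and the contrast was 0.42 in GermFree mice (adjusted p = 0.00574). The interferon-inducible gene Ifi202b had 64.9 ± 13.5 CPM in colon and 48.3 ± 11.9 CPM in ileum (adjusted p = 0.0123). Gphn, the scaffold of inhibitory synapses, had 15 ± 5.26 CPM in colon and 8.79 ± 1.33 CPM in ileum (adjusted p = 0.0285).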
